A study of Mus musculus with 8 samples.

Results

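Genes for making ribosomes, together with the transcription factor gene Myc, were examined in RNA sequencing libraries of mouse hepatic stellate cells with and without the ubiquitin ligase gene Arel1. The members were 45 genes listed by symbol and matched by Ensembl gene ID to the deposited count tables. Of the 45, 8 had a row in the tables as used here, and all 8 passed the filter on low counts. These were Ncl, Nop58, Utp14b, Rrs1, Rrp15, Wdr12, Ddx18 and Nvl. The 8 tables share 1933 gene rows, of which 420 passed the filter, and the 1830 rows that have a symbol all lie on chromosome 1. The other 37 members were not analysed here, Myc among them, so the values below describe 8 ribosome biogenesis genes and not Myc. They were the RNA polymerase I genes Polr1a, Polr1b, Polr1c and Ubtf; the nucleolar genes Npm1, Nolc1, Tcof1, Mybbp1a and Ddx21; the snoRNP genes Fbl, Nop56, Dkc1, Nhp2, Gar1 and Nop10; the small subunit genes Rrp9, Rrp12, Utp14a, Utp4, Utp15, Utp20, Wdr43, Wdr75, Nol6, Nop14, Nob1, Ltv1, Bysl and Ddx10; and the large subunit genes Rrp1b, Bop1, Pes1, Nop2, Nop16, Nip7 and Gnl3.

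Ribosomes are assembled in the nucleolus, where RNA polymerase I makes a long precursor RNA that is cut, chemically modified at positions chosen by small nucleolar RNAs (snoRNAs), and folded with ribosomal proteins into a small and a large subunit. Many of the proteins that do this work are encoded by genes that MYC binds and activates, so their transcripts are often read together as a sign of growth and protein synthesis. Stellate cells store vitamin A in the healthy liver, and in injury they enlarge, divide and secrete collagen, which places a high demand on protein synthesis.

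Each library was labelled as stellate cells isolated from the liver of a male mouse with diet-induced steatohepatitis (MASH). The control group was the floxed genotype AREL1fl/fl (4 libraries, called fl/fl below), and the other was the stellate cell knockout AREL1HSC-KO (4 libraries, called KO). Every animal in either group was on Western diet (21% fat, 20% protein, 50% carbohydrate) from 4 weeks of age for 20 weeks and was analysed at 24 weeks. The labels name no Cre driver. Nothing in them ties a library to a mouse of its own, and p-values therefore cover only library-to-library spread, which may be technical. Groups follow the sample titles, since the genotype field of 3 KO libraries carries another digit in the gene name.

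Each fl/fl library had 17619387 to 19663030 reads assigned to genes and each KO library 19271004 to 25165289, as lower limits. Reads of a single one of the 8 genes in a library ranged from 337 (Utp14b) to 49695 (Ncl). Over all genes compared, fl/fl replicate 4 stood apart from the rest of its group. The chi-square of its counts against each other fl/fl library was 3.37 to 3.47 per degree of freedom, against at most 1.86 for every other pair within a group. Results with and without it are given below. Arel1 and defining stellate cell genes such as Lrat, Reln and Des were not analysed here, so neither the knockout nor the cell type was checked on them. Of the 13 stellate and fibroblast markers listed, Col3a1 and Col5a2 had rows. Their summed level was 1136 to 1186 CPM in fl/fl and 1022 to 1035 in KO. CPM are counts scaled to the library total and corrected with the TMM factors given below. The listed hepatocyte, cholangiocyte and lymphocyte markers that had rows (2 of 11, 1 of 6 and 6 of 12) were near 0. The hepatocyte gene Serpinc1 reached 0.662 CPM at most and F5 had no read, the cholangiocyte gene Pkhd1 had 1 read in all, and 6 lymphocyte genes summed to 0.154 to 0.343 CPM in fl/fl and 0.0779 to 0.257 in KO, with Xcl1 and Ctla4 at 0. The macrophage and endothelial markers listed were not analysed here. The scaling factors of the libraries (TMM, which corrects for composition) were computed from the 420 kept genes alone, not from whole libraries. These factors also separated the groups, at 0.98 to 0.996 in fl/fl and 1.004 to 1.02 in KO. The part of these measures in the results was not tested.

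Of the 8 ribosome biogenesis genes, 5 rose in KO and none fell. Nop58, a core protein of the snoRNPs that methylate ribosomal RNA, rose by 15.7%, and the assembly factor genes Rrp15, Utp14b, Rrs1 and Wdr12 rose by 18.3%, 17.7%, 15.8% and 13.8% (edgeR quasi-likelihood test, Benjamini-Hochberg adjusted p under 0.05 over all 420 genes). Ncl, Ddx18 and Nvl did not pass the test, with log2 fold changes of -0.046, 0.079 and -0.02. Over all 420 genes, 37.6% passed the test and 18.3% passed it as higher in KO, against 5 of these 8. The share was larger with low-count genes left out. Among 320 genes with a mean of at least 5 CPM, 144 passed, 71 of them as higher, against 6 of these 8 in that fit. The median log2 fold change was 0.20 over the 8 genes and 0.0034 over the 420. The members were chosen with earlier results of these data known, so these contrasts are a description and carry no test. All 420 genes split into 77 higher and 81 lower, and this split depends on scaling, with 120 higher and 52 lower under upper-quartile scaling and 100 higher and 65 lower with library totals alone. The 5 genes were called as higher under either scaling, and Ddx18 joined them. Both scalings raised the log2 fold changes, with all-gene medians of 0.055 and 0.036. Calls as higher could hardly be lost under them, so keeping these calls is no separate support. In RNA of a cell population, a change in the share of expressing cells and a change in RNA per cell cannot be told apart.

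**Figure D1:**
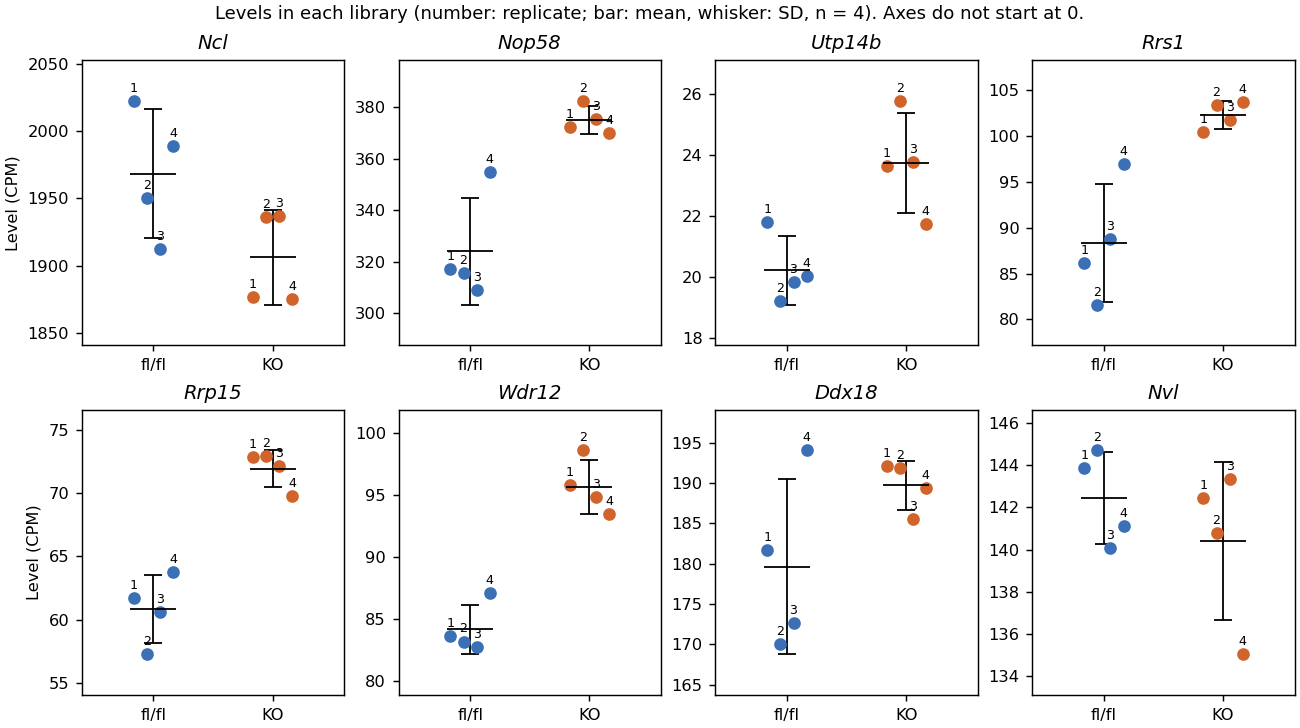
Level of the 8 ribosome biogenesis genes in each library, in CPM scaled with TMM, with 1 panel per gene, the group on the horizontal axis and the replicate number beside each point. The line is the mean and the whisker the SD of 4 libraries. The KO libraries lie above all fl/fl libraries for Nop58, Rrs1, Rrp15 and Wdr12, and fl/fl replicate 4 is the highest fl/fl library for these 4 genes and for Ddx18.

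Nucleolin, the product of Ncl (ENSMUSG00000026234), is an abundant nucleolar protein that acts in RNA polymerase I transcription and in early processing of the precursor RNA. Its level was 2023, 1950.0, 1912 and 1989 CPM in fl/fl replicates 1 to 4 and 1876, 1936, 1937 and 1875 CPM in KO replicates 1 to 4. The groups overlapped, since KO replicates 2 and 3 lay above fl/fl replicate 3. The means were 1968 ± 47.9 CPM for fl/fl against 1906 ± 35.2 CPM for KO (SD, n = 4; log2 change, the fold change on the log2 scale, -0.046, SE 0.021, edgeR adjusted p = 0.0895). The sign of this small difference depends on scaling, with a log2 fold change of 0.005 under upper-quartile scaling. Ncl passed the test as lower without fl/fl replicate 3 (log2 fold change -0.061, edgeR adjusted p = 0.0416) and without fl/fl replicate 4 (-0.043, adjusted p = 0.0417), and its adjusted p ran from 0.0416 to 0.884 over 19 alternatives.

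NOP58, the product of Nop58 (ENSMUSG00000026020), is a scaffold of the box C/D snoRNPs, which guide 2'-O-methylation of ribosomal RNA. Nop58 stood at 317.1, 315.5, 309.0 and 354.8 CPM in fl/fl replicates 1 to 4 and at 372.4, 382.5, 375.4 and 369.9 CPM in KO replicates 1 to 4. Every KO library was above every fl/fl library, and fl/fl replicate 4 lay between the other fl/fl libraries and KO. The mean rose from 324.1 ± 20.8 to 375 ± 5.45 CPM (SD, n = 4; log2 change 0.21, SE 0.032, edgeR adjusted p = 2.35e-05). Leaving out fl/fl replicate 4 gave Nop58 a log2 fold change of 0.26.

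UTP14B, encoded by Utp14b (ENSMUSG00000079470), is a component of the small subunit processome, the particle in which the precursor RNA of the small subunit is first folded and cut. Utp14b is a retrogene copy of the X-linked gene Utp14a. It was the least expressed of the 8, at 21.82, 19.21, 19.83 and 20.03 CPM in fl/fl replicates 1 to 4 and 23.64, 25.79, 23.79 and 21.75 CPM in KO replicates 1 to 4. The groups touched, since fl/fl replicate 1 lay just above KO replicate 4. The mean rose from 20.22 ± 1.12 to 23.74 ± 1.65 CPM (SD, n = 4; log2 change 0.23, SE 0.06, edgeR adjusted p = 0.00278). With counts of the reverse strand alone the call was lost (log2 fold change 0.18, adjusted p = 0.0806), the highest of a range that began at 0.00036.

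The counts of Utp14b carry additional uncertainty from its neighbours in sequence. RefSeq starts Utp14b and the acyl-CoA synthetase gene Acsl3 at the same base, and in GENCODE M21 exons of the pair share 244 bases on 1 strand. Reads there count for neither gene. Where other Utp14b exons lie inside Acsl3, reads of unspliced Acsl3 RNA would count for Utp14b, and their part was not tested. Acsl3 itself averaged 50.79 ± 1.16 CPM for fl/fl against 53.44 ± 2.03 CPM for KO (SD, n = 4; log2 change 0.071, SE 0.038, edgeR adjusted p = 0.155). The Utp14b transcript aligned to that of Utp14a over 2253 bases with 77.5% identity. The longest run of identical bases in that alignment is shown because it limits how much sequence the copies share, and capitals mark that all its bases are identical.
Utp14a and Utp14b: AGTGAAGATGAGGGGGACAGTGATGGAGAA
This run is 30 bases long, and none of the windows of 50 bases in the aligned part of Utp14b occurs in Utp14a. No read length is given in the sources used.

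Among the factors of the large subunit, RRS1 brings the 5S RNA and its proteins into the early large subunit particle. Rrs1 (ENSMUSG00000061024) stood at 86.14, 81.62, 88.8 and 96.9 CPM in fl/fl replicates 1 to 4 and at 100.5, 103.3, 101.7 and 103.7 CPM in KO replicates 1 to 4. The groups did not overlap, and the fl/fl libraries spread more widely than the KO libraries. The mean rose from 88.36 ± 6.42 to 102.3 ± 1.51 CPM (SD, n = 4; log2 change 0.21, SE 0.038, edgeR adjusted p = 0.00011).

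RRP15 is needed for processing of the precursor RNA toward the large subunit. Rrp15 (ENSMUSG00000001305) stood at 61.7, 57.28, 60.59 and 63.76 CPM in fl/fl replicates 1 to 4 and at 72.81, 72.89, 72.1 and 69.77 CPM in KO replicates 1 to 4. The lowest KO library exceeded the highest fl/fl library. Rrp15 had the largest fold change of the 8 genes, from 60.83 ± 2.71 to 71.89 ± 1.46 CPM (SD, n = 4; log2 change 0.24, SE 0.036, edgeR adjusted p = 4.55e-06). The estimate was 0.31 with forward-strand and 0.17 with reverse-strand counts, and both passed the test.

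WDR12 forms, with PES1 and BOP1, the PeBoW complex that is required for maturation of the large subunit RNAs. Wdr12 (ENSMUSG00000026019) stood at 83.67, 83.21, 82.73 and 87.11 CPM in fl/fl replicates 1 to 4 and at 95.84, 98.61, 94.87 and 93.47 CPM in KO replicates 1 to 4. The groups were fully separate, and the spread within either group was small. The mean rose from 84.18 ± 1.99 to 95.7 ± 2.17 CPM (SD, n = 4; log2 change 0.19, SE 0.031, edgeR adjusted p = 2.32e-05). Wdr12 lies head to head with Carf on the other strand, and their exons share 61 bases in GENCODE M21. Carf averaged 8.357 ± 0.662 CPM for fl/fl against 9.231 ± 0.594 CPM for KO (SD, n = 4; log2 change 0.14, SE 0.087, edgeR adjusted p = 0.207).

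DDX18, a DEAD-box RNA helicase of the nucleolus, acts in large subunit assembly. Ddx18 (ENSMUSG00000001674) stood at 181.6, 170.0, 172.7 and 194.0 CPM in fl/fl replicates 1 to 4 and at 192.1, 191.8, 185.5 and 189.4 CPM in KO replicates 1 to 4. The groups overlapped because fl/fl replicate 4 was the highest of all 8 libraries, while the other 3 fl/fl libraries lay below every KO library. The means were 179.6 ± 10.8 CPM for fl/fl against 189.7 ± 3.07 CPM for KO (SD, n = 4; log2 change 0.079, SE 0.032, edgeR adjusted p = 0.0576). Ddx18 passed the test in 8 of 19 alternatives. Without fl/fl replicate 4 its log2 fold change was 0.12 (edgeR adjusted p = 3.69e-05), and without fl/fl replicate 2 it was 0.056 (adjusted p = 0.186, the highest of the range).

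NVL, an AAA-type ATPase, removes assembly factors from the maturing large subunit. Nvl (ENSMUSG00000026516) stood at 143.9, 144.7, 140.1 and 141.1 CPM in fl/fl replicates 1 to 4 and at 142.4, 140.8, 143.4 and 135.0 CPM in KO replicates 1 to 4. The groups overlapped almost entirely, and KO replicate 4 was the lowest library. The means were 142.5 ± 2.2 CPM for fl/fl against 140.4 ± 3.74 CPM for KO (SD, n = 4; log2 change -0.02, SE 0.027, edgeR adjusted p = 0.592). The sign depends on scaling, with 0.031 under upper-quartile scaling and 0.012 with library totals alone. Nvl passed the test in none of the 19 alternatives (adjusted p from 0.41 to 0.991).

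**Figure D2:**
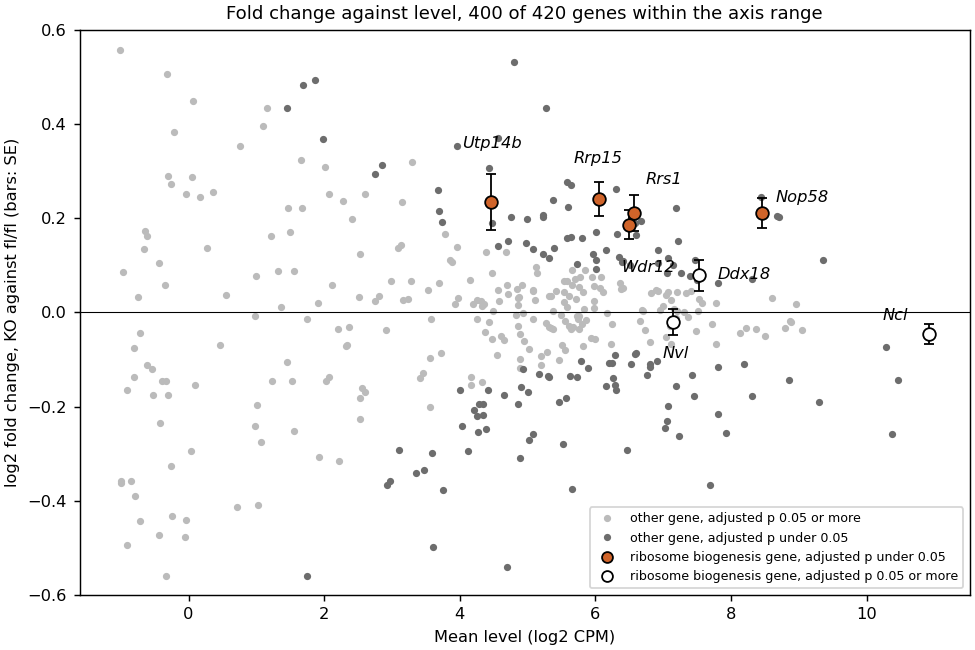
log2 fold change of KO against fl/fl (vertical axis) against the mean level in log2 CPM (horizontal axis) for the 400 of 420 genes with a log2 fold change between -0.6 and 0.6, with the 8 ribosome biogenesis genes labelled. Large points are these genes, filled where the adjusted p is under 0.05, with bars for the SE. The 5 filled points lie between 0.19 and 0.24, while Ddx18, Nvl and Ncl lie at 0.079, -0.02 and -0.046.

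The 5 genes that rose did so by similar amounts, with log2 fold changes from 0.19 to 0.24 and SEs of 0.031 to 0.06, so their order among themselves is within the error. They do not share 1 step of ribosome assembly. Nop58 belongs to the snoRNPs, Utp14b to the small subunit, and Rrs1, Rrp15 and Wdr12 to the large subunit. Ddx18 and Nvl also belong to the large subunit, so of the 5 large subunit genes with a row 3 rose and the other two did not pass the test. The groups were fully separate for 4 of the 8 genes, all higher in KO. This was so for 31.4% of all 420 genes, and for 14.8% of them with KO higher.

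The contrast among the 8 genes can be read without any scaling between libraries from ratios of their counts within a library. Of the 15 ratios of a gene that rose over one that did not pass the test, 14 were higher in every KO library than in any fl/fl library, and the mean ratio was 1.07 to 1.22 times as high in KO. The genes were sorted by the same values, so these ratios are a description and carry no test. Nop58 over Ncl was 0.157, 0.162, 0.162 and 0.178 in fl/fl replicates 1 to 4 and 0.198, 0.198, 0.194 and 0.197 in KO replicates 1 to 4. Its mean was 0.165 ± 0.00945 for fl/fl against 0.197 ± 0.00205 for KO (SD, n = 4). Rrp15 over Nvl averaged 0.427 ± 0.0232 in fl/fl and 0.512 ± 0.00684 in KO. The ratios over Ddx18 moved least, and Utp14b over Ddx18 was the exception in which the groups overlapped.

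**Figure D3:**
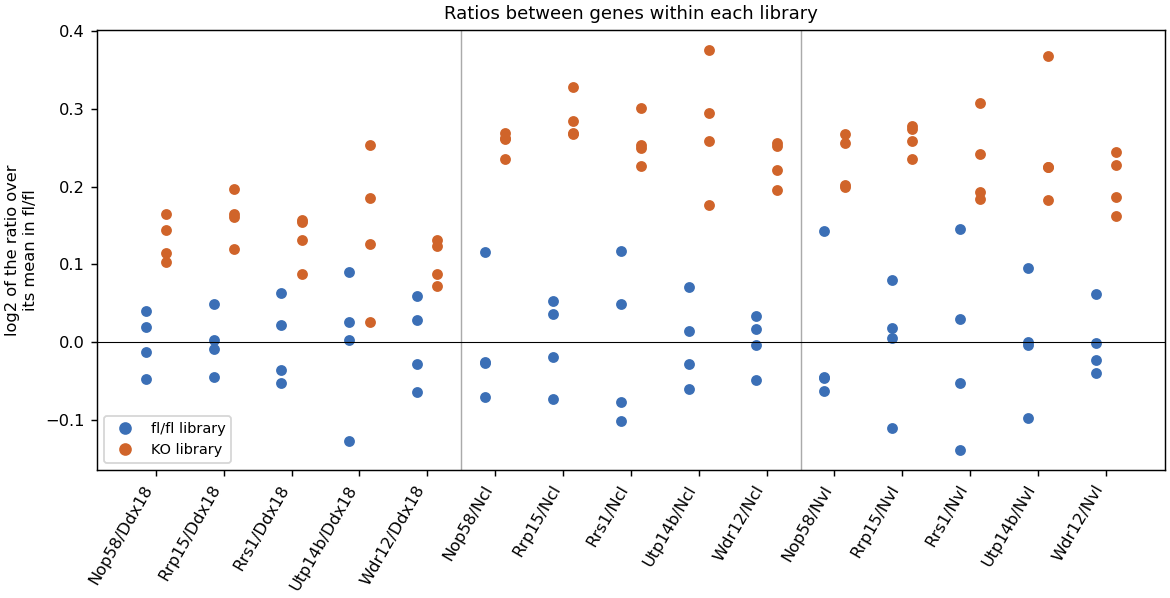
Ratios of each gene that rose over Ddx18, Ncl and Nvl within each library, as log2 of the ratio divided by its fl/fl mean, with the 15 ratios on the horizontal axis. Blue points are fl/fl libraries and orange points KO libraries. The orange points lie above all blue points in 14 of the 15 ratios, the exception being Utp14b over Ddx18.

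The place of fl/fl replicate 4 differed from gene to gene. Measured from the mean of the other 3 fl/fl libraries (0) to the KO mean (1), it lay at 0.678 for Rrs1, 0.669 for Nop58, 0.324 for Rrp15 and 0.313 for Wdr12, and at -0.0732 for Utp14b. For Ddx18, whose groups did not separate, it lay beyond KO at 1.29. Without this library the 5 genes had log2 fold changes of 0.20 (Wdr12) to 0.26 (Rrp15), each higher than with it except for Utp14b (0.23). Ddx18 passed the test as higher and Ncl as lower without it, which gave 7 of 8 genes. Nvl stood at -0.027 and did not pass. Calls over all genes also became more frequent, at 191 of 428 tested (95 higher and 96 lower) without this library against 158 of 420 with it.

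**Figure D4:**
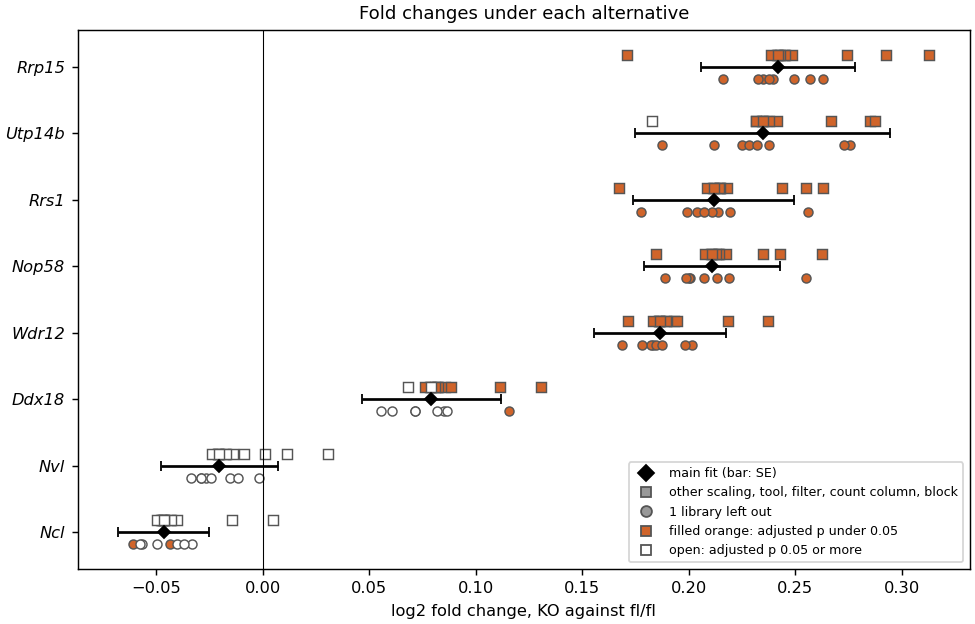
log2 fold change of KO against fl/fl (horizontal axis) for the 8 genes (vertical axis), with the main estimate as a diamond with its SE, other scalings, tools, filters, count columns and the replicate block as squares, and fits with 1 library left out as circles. Filled orange symbols have an adjusted p under 0.05. Nop58, Rrs1, Rrp15 and Wdr12 are filled in all 19 alternatives, Utp14b in 18, Ddx18 in 8, Ncl in 2 and Nvl in none.

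Per kilobase of coding sequence, the levels of the 8 genes in fl/fl covered a wide range. Ncl stood at 928.1 ± 22.6 CPM per kilobase (SD, n = 4), the second highest of the 374 kept genes with a coding sequence in GENCODE M21, where it ranked 2. Nop58 followed at 201.6 ± 12.9, then Ddx18 at 90.7 ± 5.47, Rrs1 at 80.7 ± 5.86, Rrp15 at 72.16 ± 3.21, Wdr12 at 66.34 ± 1.57 and Nvl at 55.54 ± 0.856 CPM per kilobase. Utp14b was far below at 8.642 ± 0.479, rank 284. The ranges of libraries overlapped between Ddx18 and Rrs1, between Rrs1 and Rrp15 and between Rrp15 and Wdr12, so these neighbours in the order are not distinguished. Reads in untranslated exons are counted but not part of the length, which can raise genes with long ones.

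The promoters of 5 genes are shown so that those of genes that rose (Nop58, Rrp15 and Utp14b) can be set beside those of genes that did not pass the test (Ncl and Nvl). RefSeq windows on GRCm38.p6 from 250 bases before to 50 bases after the start were available for 7 of the 8 genes, Wdr12 with 3 windows, and none was used for Rrs1. The windows are chr1:59684756-59685055 (plus strand) for Nop58, chr1:186749309-186749608 (minus strand) for Rrp15, chr1:78658190-78658489 (plus strand) for Utp14b, chr1:86359406-86359705 (minus strand) for Ncl and chr1:181144155-181144454 (minus strand) for Nvl. Capitals mark motifs found on either strand.
Nop58: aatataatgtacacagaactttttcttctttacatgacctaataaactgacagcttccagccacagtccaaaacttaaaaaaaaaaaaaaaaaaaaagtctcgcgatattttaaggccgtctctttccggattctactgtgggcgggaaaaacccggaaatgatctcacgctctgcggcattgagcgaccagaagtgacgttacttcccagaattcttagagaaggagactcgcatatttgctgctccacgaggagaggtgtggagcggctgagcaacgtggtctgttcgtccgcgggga
Rrp15: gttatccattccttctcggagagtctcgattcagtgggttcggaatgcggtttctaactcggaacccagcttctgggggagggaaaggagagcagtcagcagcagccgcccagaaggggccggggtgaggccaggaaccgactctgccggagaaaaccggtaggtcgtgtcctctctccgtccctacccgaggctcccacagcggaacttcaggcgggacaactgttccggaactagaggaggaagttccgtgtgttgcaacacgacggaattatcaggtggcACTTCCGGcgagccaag
Utp14b: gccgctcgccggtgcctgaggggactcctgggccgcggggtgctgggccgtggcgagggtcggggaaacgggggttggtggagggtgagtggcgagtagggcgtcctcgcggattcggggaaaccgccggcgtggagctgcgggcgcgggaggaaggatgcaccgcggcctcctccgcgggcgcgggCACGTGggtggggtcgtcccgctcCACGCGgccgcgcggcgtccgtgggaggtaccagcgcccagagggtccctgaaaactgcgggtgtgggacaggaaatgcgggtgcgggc
Ncl: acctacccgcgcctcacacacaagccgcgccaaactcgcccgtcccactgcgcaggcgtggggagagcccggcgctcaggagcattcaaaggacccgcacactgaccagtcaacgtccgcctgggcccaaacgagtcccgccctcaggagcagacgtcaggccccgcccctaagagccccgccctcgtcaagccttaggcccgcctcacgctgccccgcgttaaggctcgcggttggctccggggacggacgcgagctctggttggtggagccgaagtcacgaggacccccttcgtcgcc
Nvl: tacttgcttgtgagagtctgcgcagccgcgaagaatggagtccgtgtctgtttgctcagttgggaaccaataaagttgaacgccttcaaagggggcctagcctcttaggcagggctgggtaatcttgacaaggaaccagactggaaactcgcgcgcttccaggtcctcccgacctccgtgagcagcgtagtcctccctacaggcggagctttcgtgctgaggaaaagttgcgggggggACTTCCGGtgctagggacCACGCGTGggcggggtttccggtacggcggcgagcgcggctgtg
The motifs searched were the E-box that MYC with MAX binds best (CACGTG), an E-box variant (CACGCG), the palindromic NRF1 motif, an ETS motif (CCGGAAGT) and the palindrome that BANP binds. These letters occur in 7.15%, 9.27%, 0.971%, 3.89% and 0.466% of the 32851 promoter windows in the table. CACGTG was found in 1 of the 9 windows of these genes, that of Utp14b, 63 bases before the start. Acsl3 starts at the same base as Utp14b, so the motifs of this window also precede Acsl3, which did not pass the test. CACGCG was found in Utp14b, 39 bases before the start, and in Nvl at overlapping places on the opposite strands, 6 and 8 bases after it. The ETS motif was found in Rrp15, 33 bases after the start, and in Nvl, 12 bases before it. The NRF1 and BANP palindromes were in none of the 9 windows, which says only that these letters are not there. The windows of these genes had 9 to 40 CpG dinucleotides, where the median of the table is 7. Each motif that was found lay in the windows of 1 gene or of a pair of genes. The variant E-box and the ETS motif were each found both in a gene that rose and in Nvl.

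Position along the chromosome was examined in the same way. Of the 16 kept genes that lie nearest to the 8 genes on each side, 2 were higher (Ap1s3, next to Utp14b, and Bmpr2, next to Nop58) and 2 lower (Itm2c, next to Ncl, and Cnih4, next to Nvl) in KO by the edgeR test. The share of all genes called was 37.6%, and the median log2 fold change of these neighbours was 0.023. Some neighbours had low levels, such as A430105J06Rik at 0.611 and Gm26901 at 0.747 CPM in fl/fl, which makes a call less likely. Nop58 and Wdr12 lie close together with 3 kept genes between them. Of these, the BMP receptor gene Bmpr2 had a log2 fold change of 0.083 (SE 0.032, edgeR adjusted p = 0.0419). Fam117b and Ica1l had values of 0.045 (SE 0.043) and -0.33 (SE 0.28) and did not pass the test. Ica1l averaged only 0.928 CPM in fl/fl and 0.741 in KO, so its value is imprecise.

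Some snoRNAs that guide modification of ribosomal RNA are encoded in introns of Ncl and Nop58. The libraries select polyadenylated RNA, so mature snoRNAs are largely outside what they measure. Over all 8 libraries, the rows for Snora75 and Snord82, in Ncl, held 0 reads. Of the snoRNA rows inside Nop58, Snord70 had 31 reads in fl/fl and 34 in KO, Gm26287 had 21 and 21, Snord11 had 6 and 6, and Gm26293 had none. These counts are too low to show a difference.

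Of the other genes listed for ribosome assembly, RNA polymerase I, the RNA exosome, the MYC network, snoRNA hosts and ribosomal proteins (254 entries in 8 lists), none has a row shared by the tables, and they were not analysed here. From the cell cycle list, 3 of 24 genes had rows. Mcm3 and Mcm6, subunits of the helicase that opens DNA for replication, had log2 fold changes of 0.21 and 0.20, and Cenpf, a kinetochore gene of late cycle stages, had -0.18 (edgeR adjusted p = 3.68e-07, 1.06e-07 and 3.38e-06, n = 4 per group). The 2 helicase genes rose by 15.3% and 15.1%, and the 5 ribosome biogenesis genes by 13.8% to 18.3%. The part of cell division in these values was not tested.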

How the data were processed

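The authors deposited raw read counts, with 1 STAR-format table per library (8 in all) that gives either-strand, forward and reverse columns. Per the submitters' processing notes, the tools were fastp, STAR 2.7.10a and DESeq2 1.38.0, and GRCm38 as well as GRCm39 is named there. No annotation release is given in the sources used. The analysed tables have 1933 to 1943 gene rows each, incomplete last lines were left out, and the 1933 shared rows were analysed. Because they cover 3.20% to 3.28% of a library, library size was the lower limit of gene-assigned reads, derived from the no-feature and ambiguous counts of the 3 columns (upper limit 2.51% to 2.65% higher). Reverse over forward reads gave 0.985 to 1.02 although the kit is named as stranded, so the either-strand counts were used and reads on exons of overlapping genes count for neither.

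Counts were tested with edgeR 4.0.16 in R 4.3.3 (filterByExpr, TMM, robust quasi-likelihood F test, Benjamini-Hochberg adjustment over 420 genes, threshold 0.05), and with DESeq2 1.42.0 as an alternative. The SE of a log2 fold change comes from the F statistic. Symbols, exon overlaps and coding lengths come from GENCODE M21 (GRCm38). No pair of libraries in a group agreed within sampling noise (largest chi-square p = 3.68e-07), and fl/fl replicate 4 differed most from its group. With counts this large, such p-values do not show that libraries come from separate mice. The spread beyond counting noise was small, with a common edgeR estimate of 2.53% between libraries of a group. The members and gene lists were chosen with earlier results of these data known. Every member with a row is named with its value in every library, and all kept genes of another list where there are 4 or fewer.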

Additional observations from a re-analysis of the deposited data

How the results depend on the processing

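Alternatives were other scalings, DESeq2, filters, strand columns, library sizes, the replicate block, adjusted p under 0.01, and each library left out. The number of the 8 genes called in either direction stayed between 5 and 7, though not always as the same set. The count of 158 genes over all rows stayed between 108 and 191, and the 3 cell cycle genes kept their calls. Utp14b lost its call with reverse-strand counts (log2 fold change 0.18), where Ddx18 was called in its place. Ddx18 passed the test with upper-quartile scaling (0.13), library totals alone (0.11), no filter (0.086), a mean of at least 5 CPM (0.082), reverse-strand counts (0.088) and row sums as library size (0.076), and ranged from 0.056 to 0.12 with 1 library left out. Ncl ranged from -0.061 to -0.033 with 1 library left out, and was 0.0050 with upper-quartile scaling. It was called as lower without fl/fl replicate 3, where 6 of the 8 were called (5 higher, 1 lower). It was also called as lower without fl/fl replicate 4, where 7 were called (6 higher, 1 lower). Nvl turned positive with upper-quartile scaling (0.031), library totals alone (0.012) and reverse-strand counts (0.00088). The cause was not tested. Upper-quartile scaling shifted the all-gene median to a log2 fold change of 0.055. The replicate numbers of the titles are not stated to pair the libraries, and same-numbered libraries did not deviate together (correlations of -0.179, 0.0621, -0.145 and -0.0908 across genes). With the number as a replicate block 150 genes were called, 6 of them among the 8, the additional one being Ddx18 (0.081). At the depth of these libraries Utp14b, with 337 to 662 reads, is the least precisely measured of the 8.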
